A study of Mus musculus with 3 samples.

Results

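Chromatin regulators that are recurrently mutated in human B cell lymphoma were followed in 3 mouse lymphomas. They are 10 genes chosen by name for that role: the methyltransferases Kmt2d and Kmt2c, the acetyltransferases Crebbp and Ep300, the Polycomb genes Ezh2, Eed and Suz12, the 5-methylcytosine oxidase Tet2, the demethylase Kdm6a and the remodeller subunit Arid1a. All 10 were found among the 37646 genes of the count files, and all 10 passed the filter on low counts that left 11478 genes for testing. RNA-seq had been run on sorted splenic lymphoma cells (B220+GFP+, dead cells excluded with 7AAD) from moribund C57BL/6 pBIC mice, 1 library for each of tumours 1, 2 and 3. The pBIC genotype joins homozygous floxed p53 (p53F/F), homozygous floxed Blimp1 (Blimp1F/F), 2 copies of a constitutively active IKK2 behind a floxed stop cassette (IKK2ca stopF/stopF) and 1 copy of the Cre driver Cg1Cre, so every tumour carries all of these alleles. Cg1Cre is active in B cells that transcribe the immunoglobulin gamma 1 constant region, mainly germinal centre B cells, and neither the age of the mice nor the point at which each tumour arose is given in the sources used here. The series' normal germinal centre B cells are not analysed here, so the 3 tumours form 1 group (n = 3) and every difference is one between tumours of the same genotype. The labels do not say that the tumours come from separate mice, so the tumours may not be independent. With 1 library for each, technical spread cannot be told from spread between tumours.

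These genes write, erase or use marks on chromatin that set whether enhancers and promoters are active. KMT2D and KMT2C place a methyl mark on histone H3 at enhancers, CREBBP and EP300 acetylate histones there, and KDM6A, which sits in the KMT2C and KMT2D complexes, removes the repressive methyl mark that Polycomb repressive complex 2 (PRC2) lays down. EZH2 is the catalytic subunit of PRC2, EED binds the mark and stimulates the enzyme, and SUZ12 holds the complex together. TET2 starts the removal of DNA methylation and ARID1A is a subunit of the BAF nucleosome remodeller. In the germinal centre, EZH2 is high and helps to hold B cells in a proliferating state, and loss of KMT2D or CREBBP, or activating change in EZH2, is common in lymphomas that arise from it.

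The libraries held 15022902 to 15141009 counts and 20504 to 21549 detected genes, with 4.86% to 5.59% of counts from mitochondrial genes. All 7 B cell markers were above 1 CPM (counts per 1000000 counts of the scaled library) in every tumour, and their summed level was 4095, 2283 and 2276 CPM in tumours 1, 2 and 3. Markers of other cells were low but uneven: 6 T cell markers summed to 17.1, 26.6 and 39.7 CPM, 6 macrophage markers to 8.14, 13.1 and 4.95 CPM, 6 neutrophil markers to 54.0, 19.8 and 2.87 CPM, 5 erythroid markers to 6.59, 22.1 and 141 CPM, and 6 stromal and endothelial markers to 2.71, 0.832 and 0.717 CPM, with Col3a1 at 0. Their part in the differences below was not tested.

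The level was highest in tumour 1 and lowest in tumour 2 for 7 of the 10 regulators: Kmt2d, Kmt2c, Crebbp, Ep300, Tet2, Kdm6a and Arid1a. The other three, the PRC2 core genes Ezh2, Eed and Suz12, were all lowest in tumour 3, as 33.0% of all tested genes were. Over all tested genes 1935 of 11478, or 16.9%, had the pattern of highest in tumour 1 and lowest in tumour 2, and among genes of over 8000 nt of exon, a class that holds all 7 regulators, 36.8% had it. No regulator passed the test that asks if the spread of a gene over the tumours exceeds that of genes with a like abundance (edgeR's quasi-likelihood framework, Benjamini-Hochberg over all tested genes). That test called 16 genes, 0.139% of those tested, at an adjusted p of 0.05, and the smallest adjusted p among the regulators was 0.401, for Kmt2d. At an unadjusted p of 0.05 the edgeR test passed 4 of the 10, Kmt2d, Kmt2c, Tet2 and Ezh2, beside 720 of 11478 genes (6.27%). With the library-wide trend on length and GC content described below removed, it passed 1 of the 10, Ezh2, beside 700 genes (6.10%). Leaving out tumour 1 or tumour 2 took the 16 calls to 0 (654 and 606 genes at an unadjusted p of 0.05), leaving out tumour 3 gave 11 calls, 6 of them among the 16, and no regulator was called in any of these. Bulk libraries cannot tell fewer cells that transcribe a gene from less RNA per cell.

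**Figure D1:**
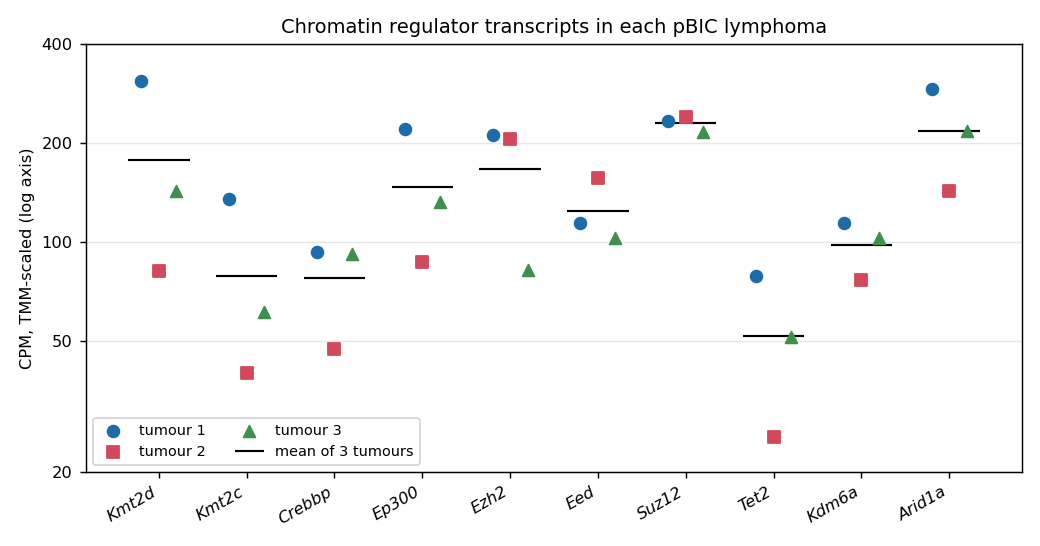
Level of the 10 regulators in each tumour, in CPM after scaling by the trimmed mean of M values (log axis), 1 point per tumour and a bar at the mean of 3. Kmt2d spans 81.6 to 309.6 CPM with tumour 2 lowest, Suz12 stays between 216.4 and 239.3 CPM, and Ezh2 stands at 82.4 CPM in tumour 3 against 205.7 and 211.2 CPM in the other two.

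Among the enhancer methyltransferases, Kmt2d differed most between tumours. Kmt2d (ENSMUSG00000048154.17, chromosome 15, 98831669 to 98871204 on the minus strand in mm10, 55 exons) had 309.6, 81.6 and 142.9 CPM in tumours 1, 2 and 3, from 4795, 1177 and 2194 counts. Tumour 1 stood well above the other two, 3.79-fold over tumour 2 (95% interval 3.56 to 4.05, which covers counting error only). Its adjusted p in edgeR was 0.401. Kmt2c (ENSMUSG00000038056.15, chromosome 5, 25271798 to 25498783 on the minus strand, 59 exons) followed the same order at a lower level, with 135.1, 40 and 61.2 CPM. The ratio of tumour 1 to tumour 2 was 3.38 (3.08 to 3.71, counting error only) and the adjusted p in edgeR was 0.522. The Kmt2c exons overlap those of Gm42585 on the opposite strand over 274 bases, 1.35% of its length, and that gene held 20, 18 and 25 counts, against 577 to 2093 for Kmt2c.

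The relatives of this pair were also lower in tumour 2. Kmt2a, the founder of the family and a target of translocations in acute leukaemia, had 476.5, 170.6 and 196.2 CPM, and Kmt2b, its closest relative, 191.4, 87.4 and 176.6 CPM. Kmt2a was therefore low in both tumours 2 and 3, as Kmt2d and Kmt2c were, while Kmt2b in tumour 3 was near its tumour 1 level. Of 7 subunits listed for the KMT2C and KMT2D complexes, 6 were matched, all 6 passed the filter and 0 were called by edgeR; their log2 differences of tumour 2 from tumour 1 ran from -1.02 for Ncoa6 to 1.21 for Dpy30, with a median of 0.11 and a median length of 6449.5 nt, against 19931 nt for Kmt2d. The small shared subunit Dpy30 had the highest level per length of that list, 191 TPM (counts divided by exon length, scaled to sum to 1000000 per library), and Ncoa6, a nuclear receptor coactivator in these complexes, had the lowest, 26.7 TPM.

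Kdm6a was the least uneven of the 7 regulators with the tumour 1 over tumour 2 order. Kdm6a (ENSMUSG00000037369.17, X chromosome, 18162575 to 18279936 on the plus strand, 29 exons) had 114.0, 76.5 and 103.1 CPM, and tumours 1 and 3 were close. Tumour 1 was 1.49-fold over tumour 2 (1.38 to 1.61, counting error only), with an adjusted p of 0.997 in edgeR. Kdm6a is a gene that escapes inactivation of the X chromosome, and its Y-linked relative Uty had 1, 0 and 1 counts. Of 4 Y-linked genes none passed the filter, and Eif2s3y had no count in any tumour. Xist, the RNA that coats the inactive X chromosome, had 2294, 690.9 and 738.8 CPM and was not called (adjusted p 0.255 in edgeR). It has 17946 nt of exon. With the library-wide trend on length and GC content described below removed, its log2 difference of tumour 2 from tumour 1 went from -1.73 to -0.98. Among 5 genes listed as escaping inactivation, Kdm6a included, the median log2 difference of tumour 2 from tumour 1 was 0.02 and 0 were called; Ddx3x, an RNA helicase with the highest level of that list, had 638.0, 647.3 and 597.9 CPM, and Eif2s3x, a translation initiation factor subunit, had the lowest at 25.3 TPM. The autosomal relative Kdm6b had 77.7, 35.4 and 31.99 CPM, so that it was low in tumour 3, where Kdm6a was not.

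The acetyltransferase pair did not share one pattern in tumour 3. Crebbp (ENSMUSG00000022521.10, chromosome 16, 4081328 to 4213997 on the minus strand, 31 exons) had 93.4, 47.3 and 92.1 CPM, so that tumours 1 and 3 were alike and tumour 2 stood apart. Ep300 (ENSMUSG00000055024.12, chromosome 15, 81585351 to 81652077 on the plus strand, 31 exons) had 220.2, 87.1 and 132.6 CPM, with tumour 3 between the other two. Tumour 1 was 1.98-fold over tumour 2 for Crebbp (1.80 to 2.17) and 2.53-fold for Ep300 (2.37 to 2.70), both intervals for counting error only. The adjusted p values in edgeR were 0.986 and 0.816. Of 7 other acetyltransferases all passed the filter and 0 were called by edgeR; their log2 differences of tumour 2 from tumour 1 ran from -1.45 for Kat6b and -1.11 for Kat6a to 0.58 for Kat8, with a median of -0.26. Kat2a, the catalytic subunit of the SAGA complex, led that list at 164 TPM, and Kat6b, a MYST family enzyme, was lowest at 5.25 TPM. The corepressors and deacetylases that act against CREBBP at germinal centre enhancers had a median difference of -0.01 over 9 tested genes with 0 called. Gps2, a subunit of the NCOR complex, was highest of these at 138 TPM, and Bcl6, the germinal centre repressor that recruits such complexes, was lowest at 3.37 TPM.

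Tet2 had the lowest level of the 10 per length of union exon. Tet2 (ENSMUSG00000040943.12, chromosome 3, 133463679 to 133545139 on the minus strand, 12 exons) had 78.7, 25.4 and 51.4 CPM from 1219, 367 and 789 counts, with the tumours evenly apart. Tumour 1 was 3.09-fold over tumour 2 (2.75 to 3.49, counting error only), and the adjusted p in edgeR was 0.706. The related oxidase Tet3 had 68.6, 30.7 and 61.5 CPM. Tet1, the other member of that family, was barely detected, with 16, 5 and 5 counts. Of 11 genes listed for DNA methylation and its removal, 10 passed the filter and 0 were called by edgeR. Their median log2 difference was -0.19 for tumour 2 and -0.49 for tumour 3 against tumour 1. Ogt, the transferase that partners TET proteins, had the highest level of that list at 144 TPM and Tet1 the lowest at 0.115 TPM.

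Arid1a had the second highest CPM of the group in tumour 1. Arid1a (ENSMUSG00000007880.16, chromosome 4, 133679008 to 133756769 on the minus strand, 20 exons) had 292.5, 142.6 and 217.3 CPM, with tumour 3 midway. Tumour 1 was 2.05-fold over tumour 2 (1.95 to 2.16, counting error only), with an adjusted p of 0.989 in edgeR. Arid1b, the subunit that takes the place of ARID1A in other BAF complexes, had 90.7, 48.7 and 89.5 CPM, and Arid2, which defines the PBAF form, had 94.2, 57.8 and 118.9 CPM. All 20 other BAF and PBAF subunits passed the filter and 0 were called by edgeR; 5 of them had the order seen for Arid1a. Their log2 differences of tumour 2 from tumour 1 ran from -1.87 for Smarca2 and -1.01 for Bcl7a to 0.55 for Actl6a, with a median of -0.12, and that of Arid1a was -1.04. The ATPase Smarca4 led the list at 180 TPM, and Smarcd3, an accessory subunit, was lowest at 2.49 TPM.

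Position in this order followed exon length. Across the 10 regulators, the log2 difference of tumour 2 from tumour 1 had a Pearson correlation of -0.99 and a Spearman correlation of -0.98 with log2 of the union exon length (n = 10 genes from the same 2 libraries, a description with no test). With the length of the transcript that has the longest coding sequence in its place the values were -0.95 and -0.90. Over the 11470 tested genes with a length they were -0.35 and -0.43, so the direction was library-wide and the points lay much closer to a line among the regulators. The regulators and the tested genes differ in counts and in range of length. Genes of like count and length were not compared. The 7 genes with the tumour 1 over tumour 2 order are 8383 to 20291 nt long, and Ezh2, Suz12 and Eed are 6678, 4945 and 3828 nt. The median difference of all tested genes went from 0.45 in the 1840 genes of up to 2000 nt to -0.69 in the 587 genes of over 12000 nt. For tumour 3 against tumour 1 the members' Pearson and Spearman correlations with union exon length were both about -0.45. With the longest-coding transcript they were -0.28 and -0.22.

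**Figure D2:**
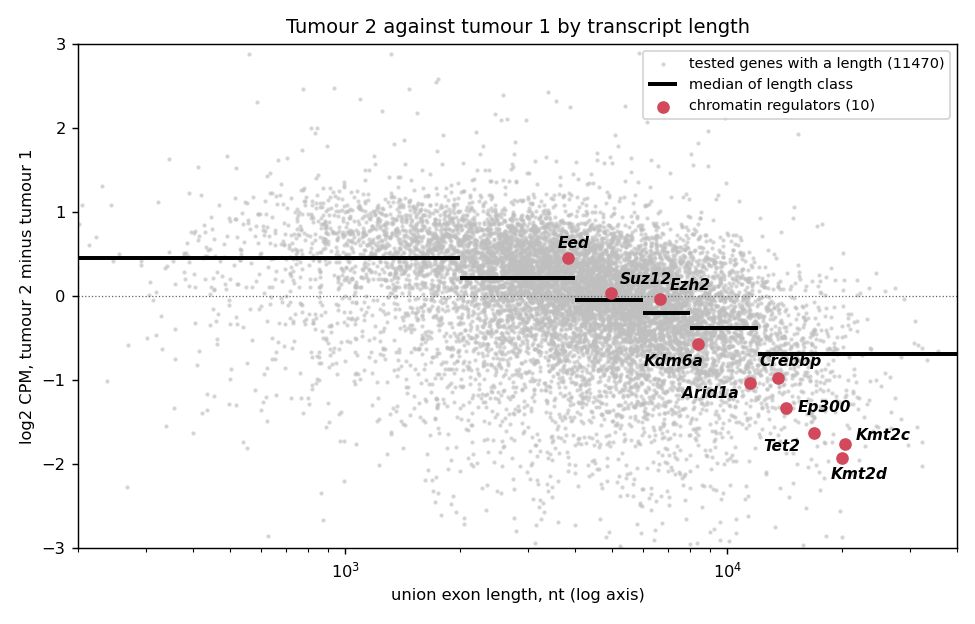
Log2 CPM of tumour 2 minus tumour 1 (vertical axis) against union exon length in nt (horizontal, log axis) for tested genes in grey, class medians as a line and the 10 regulators named. Of 11470 genes with a length, 84 lie outside the axes. The regulators run from 0.45 for Eed at 3828 nt to -1.92 for Kmt2d at 19931 nt, below the class medians at the long end.

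Even beside genes of their own length class, most of the long regulators stood low in tumour 2 relative to tumour 1. That comparison cannot tell a low tumour 2 from a high tumour 1. The class over 12000 nt has no upper limit, and Kmt2d (19931 nt), Kmt2c (20291 nt) and Tet2 (16870 nt) lie well above its lower end. Their percentages are therefore not a comparison with genes of equal length. Of the 587 tested genes over 12000 nt, 4.43% had a lower difference than Kmt2d, 5.45% than Kmt2c, 7.84% than Tet2, 14.6% than Ep300 and 31.01% than Crebbp. In the class of over 8000 and up to 12000 nt the figures were 12.9% for Arid1a and 36.2% for Kdm6a. When a smooth trend of each library on length and GC content was removed, the difference of tumour 2 from tumour 1 shrank to -1.09 for Kmt2d, -0.94 for Kmt2c, -0.93 for Tet2, -0.69 for Ep300, -0.48 for Arid1a, -0.37 for Crebbp and -0.215 for Kdm6a. All 7 kept their sign, and the number of regulators past 2-fold went from 5 of 10 to 1 of 10 (Kmt2d), against 13.5% and 10.2% of all tested genes. The median over the 10 moved from -1.01 to -0.42, and that over all tested genes from 0.00 to 0.10. Among these 7, the difference of tumour 3 from tumour 1 stayed negative after the same step for Kmt2d (-0.83), Kmt2c (-0.67), Ep300 (-0.39), Arid1a (-0.257) and Tet2 (-0.161). Crebbp and Kdm6a changed sign to 0.305 and 0.216. What produced the length trend was not tested.

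**Figure D3:**
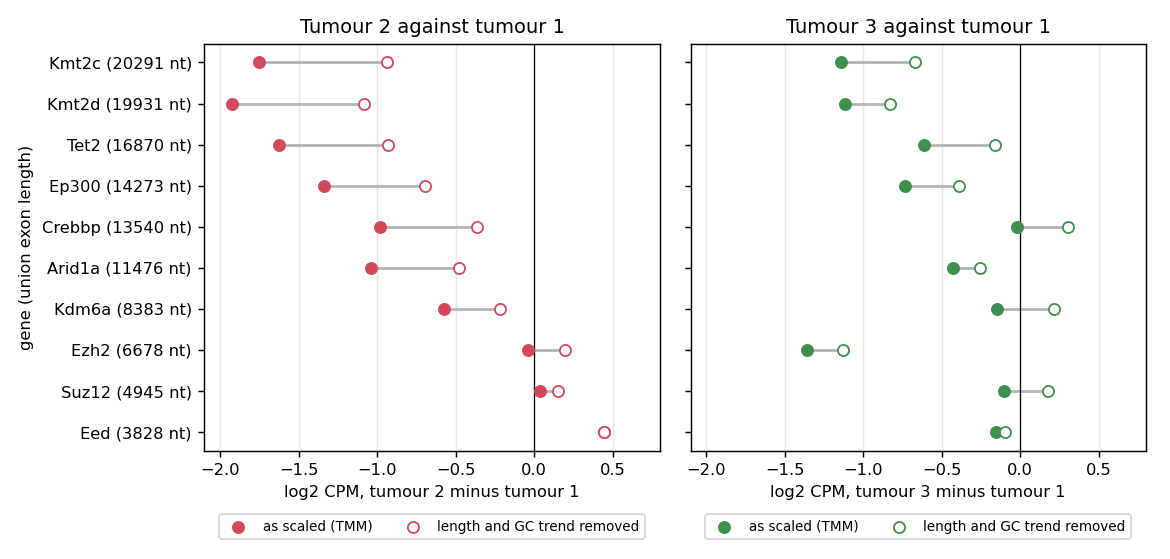
Log2 CPM difference from tumour 1 of tumour 2 (left) and tumour 3 (right) for the 10 regulators, sorted by union exon length. Filled points are as scaled and open points follow removal of each library's trend on length and GC content. On the left every open point of the 7 longest genes lies between its filled point and 0, from -0.215 for Kdm6a to -1.09 for Kmt2d; on the right the open point of Ezh2, at -1.13, is the only open one below -1.

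The PRC2 core divided differently. Suz12 (ENSMUSG00000017548.15, chromosome 11, 79993106 to 80034123 on the plus strand, 16 exons) was the steadiest regulator, with 232.8, 239.3 and 216.4 CPM and a highest to lowest ratio of 1.11; with the length and GC trend removed, its level in tumour 3 was above that in tumour 1, by 0.177 on the log2 scale. Eed (ENSMUSG00000030619.10, chromosome 7, 89954654 to 89980983 on the minus strand, 12 exons) had 114.5, 156.1 and 102.9 CPM, so that tumour 2, lowest for the 7 regulators above, was its highest. The exons of Eed overlap those of E230029C05Rik on the other strand over 261 bases, 6.82% of its length, and that gene held 26, 17 and 10 counts. The adjusted p values of edgeR's test were 1.0 for Suz12 and 0.997 for Eed.

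Ezh2, the enzyme of the complex, was low in 1 tumour. Ezh2 (ENSMUSG00000029687.16, chromosome 6, 47530139 to 47595341 on the minus strand, 20 exons) had 211.2, 205.7 and 82.4 CPM from 3271, 2967 and 1265 counts. Tumours 1 and 2 lay close together and tumour 1 was 2.56-fold over tumour 3, with an unadjusted p of 0.0355 and an adjusted p of 0.741 in edgeR. After removal of the length and GC trend the log2 difference of tumour 3 was -1.13 from tumour 1 and -1.33 from tumour 2. Of all tested genes 5.30% had a lower difference of tumour 3 from tumour 1 than Ezh2 as scaled, and 6.00% of its own length class. Its relative Ezh1, which forms PRC2 in resting cells, had 34.5, 26.0 and 33.8 CPM and was not low in tumour 3. Of 10 PRC2 partners, all passed the filter, 0 were called by edgeR and 2 were lowest in tumour 3; their median log2 difference of tumour 3 from tumour 1 was -0.05. The histone chaperone Rbbp7 was highest of them at 461 TPM and the accessory subunit Phf1 lowest at 7.30 TPM.

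Proliferation genes were also low in tumour 3 in part. Their summed level over 10 genes was 2693, 3037 and 1739 CPM in tumours 1, 2 and 3. Of the 10, 6 were lowest in tumour 3, against 33.0% of all tested genes. The other 4 were lowest in tumour 1, and 0 of 10 were called by edgeR. The lower sum in tumour 3 than in tumour 1 came from Mki67 (833.1, 451.2 and 306.2 CPM) and Top2a; the other 8 genes summed to 1210, 1956 and 1163 CPM. Top2a, the topoisomerase of dividing cells, had 649.4, 629.1 and 269.7 CPM, close to the shape of Ezh2, while the replicative helicase subunit Mcm6, highest of the list at 274 TPM, had 355.6, 554.6 and 382.4 CPM, with tumour 1 lowest. Thymidylate synthase, Tyms, was lowest of the list at 25.3 TPM. Top2a and Mki67 were picked after the values were seen. The part of proliferation, or of the 141 CPM of erythroid markers in tumour 3, in the Ezh2 level was not tested.

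The promoters of the PRC2 genes are shown because E2F factors, which drive cell cycle genes, and NF-Y, which binds the CCAAT box, are known to act at many promoters of proliferating cells. Each sequence is from RefSeq (GRCm38.p6), 250 bases before to 30 after the annotated start, read 5′ to 3′ on the gene's strand, with matches in capitals. The words searched on both strands were TTTGGCGC, TTTCCCGC and TTTCGCGC for E2F and CCAAT, read as its reverse complement where the match is on the other strand, for the CCAAT box. Kmt2d is given beside them as the regulator that differed most between tumours. The windows are chr6:47595001-47595280 (minus) for Ezh2, chr7:89980947-89981226 (minus) for Eed, chr11:79992856-79993135 (plus) for Suz12 and chr15:98871176-98871455 (minus) for Kmt2d.
Ezh2: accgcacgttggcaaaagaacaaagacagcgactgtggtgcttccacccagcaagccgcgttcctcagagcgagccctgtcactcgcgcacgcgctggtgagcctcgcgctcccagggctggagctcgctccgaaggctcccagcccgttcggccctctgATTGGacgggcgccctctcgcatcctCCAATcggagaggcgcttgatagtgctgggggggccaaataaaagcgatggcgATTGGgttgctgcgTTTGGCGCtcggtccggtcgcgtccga
Eed: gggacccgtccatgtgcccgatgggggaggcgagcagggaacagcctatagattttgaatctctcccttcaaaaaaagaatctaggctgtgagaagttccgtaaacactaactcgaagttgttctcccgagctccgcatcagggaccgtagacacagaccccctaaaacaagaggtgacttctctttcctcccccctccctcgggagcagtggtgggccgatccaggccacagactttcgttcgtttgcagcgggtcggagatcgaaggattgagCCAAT
Suz12: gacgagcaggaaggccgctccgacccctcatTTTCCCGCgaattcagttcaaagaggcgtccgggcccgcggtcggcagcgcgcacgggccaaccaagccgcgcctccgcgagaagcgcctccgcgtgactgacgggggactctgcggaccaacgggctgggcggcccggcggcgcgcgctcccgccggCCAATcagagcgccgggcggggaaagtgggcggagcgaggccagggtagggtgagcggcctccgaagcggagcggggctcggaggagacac
Kmt2d: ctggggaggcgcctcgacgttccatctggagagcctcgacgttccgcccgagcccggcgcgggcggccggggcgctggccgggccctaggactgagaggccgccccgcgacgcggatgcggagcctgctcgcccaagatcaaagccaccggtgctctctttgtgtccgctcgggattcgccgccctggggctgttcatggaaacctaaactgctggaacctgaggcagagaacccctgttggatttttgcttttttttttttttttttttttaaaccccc

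Ezh2 held 1 E2F word, beginning 4 bases after the start, and 3 CCAAT boxes, at -90, -64 and -11. Suz12 held an E2F word at -219 and a CCAAT box at -61, and Eed a CCAAT box at the very end of its printed window, at 26. In Kmt2d none of these letters were found. Over the full windows of 300 bases, E2F words were in 3 of the 11 promoters of the regulators (Arid1a has 2), those of Ezh2, Suz12 and Arid1a, and in 1.84% of all 32851 promoters of that length. CCAAT was in 3 of 11, those of the PRC2 genes, and in 37.4% of all. The GC box GGGCGG was in 9 of 11 and 35.7% of all, the ETS word CCGGAAG in 0 of 11 and 8.86%, and the cyclic AMP response element TGACGTCA in 0 of 11 and 1.79%. The regulators' promoters were rich in CpG, with a median of 31 CpG dinucleotides (17 to 57) against 7 over all promoters. A match is only a match of letters.

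**Figure D4:**
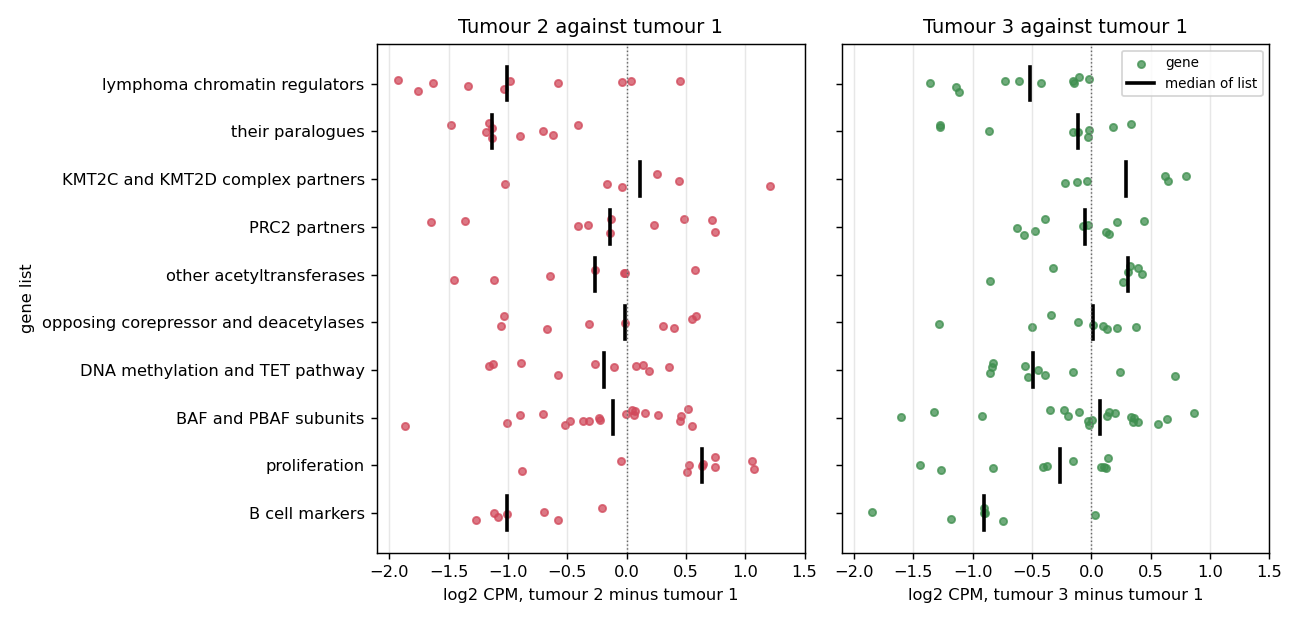
Log2 CPM difference of tumour 2 (left) and tumour 3 (right) from tumour 1 for 10 gene lists, 1 point per tested gene and a bar at the median of the list. The regulators have medians of -1.01 and -0.52, their paralogues -1.13 and -0.12, the B cell markers -1.01 and -0.90, and the proliferation list 0.64 and -0.26.

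Other lists put these differences in context. Of 11 paralogues, 9 passed the filter, 0 were called and 6 had the order of highest in tumour 1 and lowest in tumour 2; their median union exon length was 10737 nt against 12508 nt for the regulators. Of 16 other chromatin genes mutated in lymphoma, 13 passed, 0 were called and the medians were -0.32 in tumour 2 and -0.35 in tumour 3 against tumour 1. Smarca4 had the highest level of those genes as well, and the linker histone gene Hist1h1d the lowest, 0.543 TPM over 7425 nt of exon. Before division by length, Hist1h1b, with a mean of 1.17 CPM, was below Hist1h1d at 1.38 CPM. Replication-dependent histone transcripts lack poly(A) tails and are poorly captured by oligo-dT selection. The part of capture in these levels was not tested. The B cell markers had medians of -1.01 and -0.90 with 0 of 7 called. Of all the lists, 1 gene passed the edgeR threshold, the erythroid marker Hbb-bs, with 2.58, 8.67 and 61.5 CPM and an adjusted p of 0.0234.

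Per unit of exon length the PRC2 core stood highest. In TPM, Suz12 had 154.1, 132.7 and 132.5 in tumours 1, 2 and 3 (mean 139.8 ± 12.4, SD, n = 3), Eed 97.9, 111.8 and 81.4 (97.0 ± 15.2) and Ezh2 103.5, 84.5 and 37.4 (75.1 ± 34.0). The 3 tumours of Suz12 all lay above those of Eed, and every other pair of neighbours in the order overlapped. Arid1a (58.3 ± 24.7 TPM), Kdm6a (35.6 ± 9.83), Ep300 (31.8 ± 17.2) and Kmt2d (27.9 ± 20.5) formed the middle. Crebbp (17.6 ± 7.00), Kmt2c (12.1 ± 8.59) and Tet2 (9.54 ± 5.57) were lowest. Tumour 1 raised some of these means: without it the mean was 16.5 TPM for Kmt2d and 7.27 TPM for Kmt2c. The order of the means was the same without tumour 1. On average over the tumours, Suz12 exceeded 94.3% of the 18730 protein-coding genes listed and Tet2 exceeded 58.8%. Length matters for this order: with the transcript of the longest coding sequence, Ezh2 led at 124.3 ± 56.7 TPM before Eed at 123.9 ± 19.0 and Suz12 at 109.1 ± 10.5, their ranges overlapping, and Tet2 (12.3 TPM) passed Kmt2c (11.4 TPM).

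Within each tumour, 10 pairs of paralogues or partners were compared as differences in log2(TPM + 1). Kmt2d was above Kmt2c in 3 of 3 tumours, by 1.09 ± 0.14 (SD, n = 3), and this was the least variable of the 10 differences. Arid1a was above Arid1b in all 3, by 1.59 ± 0.20. Ep300 was above Crebbp in all 3, the difference of Crebbp from Ep300 being -1.13, -0.75 and -0.43 in tumours 1, 2 and 3. Kdm6a was above Kdm6b in all 3, by 0.28, 0.80 and 1.36. Ezh2 was above Ezh1 by 2.69, 3.01 and 1.38, with tumour 3 again apart, and Tet2 was above Tet1 by 3.09 ± 0.75, a size set by the pseudocount since Tet1 is near 0 (5.38 with a pseudocount of 0.1). Tet2 minus Tet3 was 0.17, -0.24 and -0.25 in tumours 1, 2 and 3 by union exon length, and -0.39, -0.77 and -0.81 by the longest-coding transcript, so Tet2 was below Tet3 in every tumour only under the latter. Within PRC2, Ezh2 minus Eed was 0.08, -0.40 and -1.10, Ezh2 minus Suz12 -0.57, -0.65 and -1.80, and Eed minus Suz12 -0.53 ± 0.25.

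With 3 tumours the exact two-sided sign-flip permutation test cannot give a p under 0.25, which 8 of the 10 pairs reached (adjusted p 0.3125 over the 10) and Ezh2 minus Eed and Tet2 minus Tet3, at p = 0.5, did not. With the longest-coding transcript as length, the mean of Ezh2 minus Suz12 turned to 0.067 and that of Eed minus Suz12 to 0.175. The order of the means within PRC2 therefore depends on the length used. In tumour 3 Ezh2 was below Eed and Suz12 under either length, at -0.742 and -0.733 with the longest-coding transcript. The other 8 pairs kept their direction of the mean with the longest-coding transcript.

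**Figure D5:**
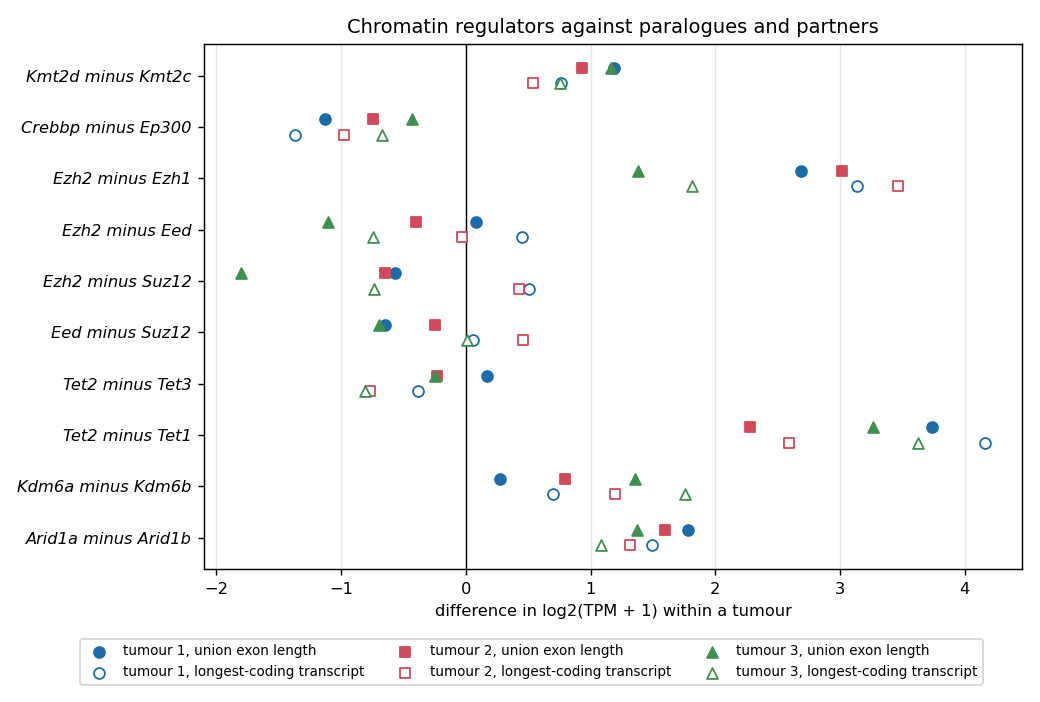
Difference in log2(TPM + 1) between the genes of each pair within a tumour, 1 symbol per tumour, filled for union exon length and open for the longest-coding transcript. Kmt2d minus Kmt2c and Arid1a minus Arid1b lie to the right of 0 in all 3 tumours under both lengths, while Eed minus Suz12 crosses 0 in all 3 tumours, and Ezh2 minus Suz12 in tumours 1 and 2, when the length changes.

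The genes nearest to each regulator were found by Euclidean distance in log2(TPM + 1) over the 3 tumours among 108 genes of the lists. Level enters this distance together with shape, so the nearest gene need not be the one closest in shape. Top2a, close to Ezh2 in shape, had a mean of 172.6 TPM against 75.1 TPM and was neither its nearest nor its next nearest gene. Crebbp lay 0.156 from Arid1b, Eed 0.207 from the deacetylase Hdac3 and 0.230 from Uhrf1, Ep300 0.283 from Kat6a, and Tet2 0.339 from Lcor and 0.383 from Tet3. Suz12 was nearest to Gps2 (0.352), Kmt2c to the DNA glycosylase Mbd4 (0.412), Kdm6a to the BAF subunit Bcl7a (0.413), Arid1a to Kmt2b (0.559) and Kmt2d to Ep300 (0.645). Ezh2 was farthest from its nearest gene, at 0.746 from the X-linked demethylase Kdm5c, which had 355.4, 198.2 and 110.6 CPM. The next nearest were Chd2 for Crebbp, Bcl7a for Ep300, Smarcd2 for Suz12, Lcor for Kmt2c, Nsd2 for Kdm6a, Aebp2 for Arid1a, Ncoa6 for Kmt2d and Hdac2 for Ezh2.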

How the data were processed

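Poly(A) RNA selected with oligo-dT from 3 pBIC lymphomas was sequenced as single reads of 50 nt, per the labels' protocols. The deposited values are whole-number counts per gene, made by the authors with STAR 2.5.2b and featureCounts 1.6.0 on mm10, per the submitters' processing notes; no source used here gives the strand setting or the annotation release. Lengths, exons and GC came from GENCODE M21 (37536 of 37646 identifiers matched). The 3 libraries are distinct: counts differed between pairs beyond sampling noise, with a chi-square of 41.9 to 45.7 per degree of freedom.

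Genes passing filterByExpr were scaled by TMM (factors 0.960 to 1.02) in edgeR 4.0.16 (R 4.3.3). An intercept-only quasi-likelihood fit gave each gene's variance over the prior at its abundance (F with 2 and 15.8 df), adjusted by Benjamini-Hochberg over 11478 genes. The fit was also run on simulated counts, whose planted changes were larger than the range of any regulator. That run therefore cannot show how well differences of the regulators' size are found. CPM use TMM-scaled totals, and log2 CPM a prior count of 0.5. TPM use union exon length. A count of 0 allows up to 0.194 to 0.208 CPM (3 counts). Trends on length and GC were fitted by natural splines with 5 df per property.

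The regulators, lists and tests were chosen with earlier results of these data known. Named were all 10 regulators, the paralogues in the 10 pairs, the highest and lowest gene by TPM of each list, any called or with no count, and the nearest list genes. Kat8, Smarca2, Actl6a, Top2a and Mki67 were named after their values were seen. Symbols missing from the files were matched by gene identifier, and Pagr1a stayed unmatched. Alternatives were DESeq2 1.42.0 size factors, library totals, other count filters, a prior that is not robust, trend removal, another length or pseudocount, and leaving out each tumour.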

Additional observations from a re-analysis of the deposited data

How the results depend on the processing

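With 3 libraries, calls of variable genes depended on the settings, while 0 of the 10 regulators were called by edgeR under any setting run (smallest adjusted p 0.114 to 0.921, and 1 to 5 regulators at an unadjusted p of 0.05). The 16 genes called became 15 with DESeq2 size factors, 0 with library totals (709 at an unadjusted p of 0.05), 0 with a mean count of at least 10 (781), 164 with every gene of at least 1 count, 0 with a prior that is not robust (571) and 3 after removal of the length and GC trend; leaving out each tumour gave 0 to 11. Trend removal turned the differences from tumour 1 of Crebbp in tumour 3 to 0.305, Kdm6a in tumour 3 to 0.216, Suz12 in tumour 3 to 0.177 and Ezh2 in tumour 2 to 0.197, and library totals turned Suz12 in tumour 2 from 0.04 to -0.052. In the pairs, Ezh2 minus Eed turned to 0.319 with no division by length, and the longest-coding transcript gave 0.067 for Ezh2 minus Suz12 and 0.175 for Eed minus Suz12; the cause of these turns beyond the changed length was not tested. A pseudocount of 0.1 and leaving out any tumour changed no direction of a pair's mean. No contrast between groups of libraries, paired or not, was possible because the libraries form 1 group. Counting error limits the regulators little, since each has at least 367 counts per library, and the number of tumours limits every comparison.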
